A study of Homo sapiens with 12 samples.

Results

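Regions of BrdU incorporation were compared between H1 control cells and IMR90 cells. The members are all autosomal regions of both deposited lists, taken by chromosome, start and end, with 4954 regions in H1 control and 5710 in IMR90. These 10664 regions stand among 165927 autosomal regions in the 6 lists of the series, which hold 169273 regions over all chromosomes. H1 is a human embryonic stem cell line. It was grown in mTESR1 between passages 35 and 45, given a non-targeting siRNA with DharmaFECT 1 in the presence of 10 µM HA 1077 and collected after 72 h. IMR90 is a strain of primary lung fibroblasts, grown in DMEM with FBS between passages 7 and 12 and given no siRNA. Both pull-downs used 4 µg of BrdU-labelled DNA and 2 µg of the same BrdU antibody, and the length of the labelling pulse is not given in the sources used here. The series also holds BrdU lists of Saos-2 osteosarcoma cells and of H1 cells with siRNAs against EP300 and CREBBP, and lists of H3K18ac, an acetylated lysine of histone H3, in H1 and IMR90. Each list comes from 1 library, so no difference between the lines could be set against replicate error. Cell line, siRNA, HA 1077, medium and passage all differ between H1 control and IMR90 and cannot be told apart. Region lists hold no expression values, so the labelled cell types could not be checked against marker genes.

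BrdU is a thymidine analogue that cells build into newly made DNA, so that antibody pull-down enriches stretches copied during the labelling period. Human cells start replication at many places that differ in how often and when in S phase they fire, and open, gene-rich chromatin is as a rule copied early. Replication timing along chromosomes is known to differ between pluripotent and differentiated cells over part of the genome. The lists give bulk averages, in which fewer firing cells and weaker labelling per cell cannot be told apart.

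The 2 lists were alike in form. H1 control regions covered 1.06 Mb with a mean width of 213 bp, and IMR90 regions covered 1.21 Mb with a mean width of 212 bp. The median width was 100 bp in both lists, the size of 1 window of the grid on which all regions lie, and single windows made up 62.4% of H1 control regions and 61.4% of IMR90 regions. At the upper end, 101 H1 control regions and 112 IMR90 regions reached 1000 bp, and the widest region spanned 3400 bp in each list. The lists differed more in spacing, with a median gap between neighbouring regions of 169 kb in H1 control and 84.4 kb in IMR90. Read depth is unknown for both libraries.

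Most regions had no counterpart in the other line. Of the H1 control regions, 1038 of 4954 (21.0%, 95% interval 19.8 to 22.1%) overlapped an IMR90 region by at least 1 bp, and 3916 did not. Of the IMR90 regions, 1034 of 5710 (18.1%, 17.1 to 19.1%) overlapped an H1 control region, and 4676 did not. These intervals are Wilson intervals and cover the counting of regions alone. In length, 303 kb lay in both lists, which was 28.7% of the H1 control length, 25.1% of the IMR90 length and 15.4% of their union.

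Sharing depended steeply on width. In H1 control, 7.44% of the 3091 single-window regions were shared, then 21.7% at 200 bp, 44.4% at 300 bp, 59.1% at 400 to 500 bp, 68.9% at 600 to 900 bp and 83.2% of the 101 regions of at least 1000 bp. In IMR90 the shares were 5.05% of the 3508 single-window regions, then 18.4%, 33.3%, 51.3%, 76.9% and 92.0% of the 112 regions of at least 1000 bp. The widest regions were thus mostly common to both lines and the narrowest mostly were not. The rank of the authors' score within its own list went the same way. None of the 414 H1 control regions in the lowest score decile was shared, which allows a share of up to 0.725% when the limit of a count of 0 is set at 3 regions, while 71.8% were shared in the highest. In IMR90 the shares were 0.369% in the lowest decile and 82.8% in the highest. A wide region has more bases that can meet another region, so the share was also taken with the central window of each region set against the full regions of the other list. It was 52.1% in the highest decile of H1 control and 59.7% in that of IMR90.

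Regions without a counterpart lay mostly far from the other line's regions. Among H1 control regions, 249 (5.03%) lay within 300 bp of an IMR90 region without touching it, 1301 (26.3%) lay more than 10 kb and up to 100 kb away, and 1951 (39.4%) had no IMR90 region within 100 kb. Among IMR90 regions, 261 lay within 300 bp of an H1 control region, 1936 (33.9%) lay more than 10 kb and up to 100 kb away, and 1939 (34.0%) had none within 100 kb. The median distance of the unshared regions to the other list was 99.3 kb for H1 control and 71.8 kb for IMR90.

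Broad regions found in only 1 of these lines were looked up in the other lists. Over all widths, 34.5% of H1 control regions and 26.8% of IMR90 regions overlapped a Saos-2 BrdU region. Among regions of at least 400 bp, the Saos-2 list held 233 of 258 unshared H1 control regions (90.3%) and 157 of 289 unshared IMR90 regions (54.3%). Of the shared regions of that width, it held 474 of 494 in H1 control (96.0%) and 487 of 532 in IMR90 (91.5%). Most broad H1 control regions therefore had a Saos-2 counterpart whether or not IMR90 had one. The other line sometimes had a region close by, within 1 kb of 27 of the 258 H1 control regions (10.5%) and of 46 of the 289 IMR90 regions (15.9%). At single windows the Saos-2 list held 53.0% of shared against 10.3% of unshared H1 control regions, and 67.2% of shared against 7.66% of unshared IMR90 regions.

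The H1 lists of the series gave smaller shares. These lists differ in size from that of Saos-2, which has 6061 autosomal regions with a mean width of 329 bp. H3K18ac of H1 has 64465 autosomal regions with a mean width of 239 bp. The EP300 and CREBBP knockdown list has only 1662, with a mean width of 120 bp, and 85.6% are single windows. The part of list size in the shares was not tested. The knockdown list held 3.11% of H1 control regions and 1.44% of IMR90 regions. At 400 bp or more it held 43 of 258 unshared H1 control regions (16.7%) and 70 of 494 shared ones (14.2%), and for IMR90 it held 2 of 289 unshared regions (0.692%) and 42 of 532 shared ones (7.89%). H3K18ac regions of H1 overlapped 8.90% of H1 control regions and 9.44% of IMR90 regions. At 400 bp or more they overlapped 29.1% of unshared and 32.2% of shared regions in H1 control, and 15.9% of unshared and 27.6% of shared regions in IMR90. The IMR90 H3K18ac list, the longest of the series with 83075 autosomal regions, overlapped 2.42% of H1 control regions and 2.45% of IMR90 regions. Whether that list matches its label could not be checked here, which limits every value taken from it.

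**Figure D1:**
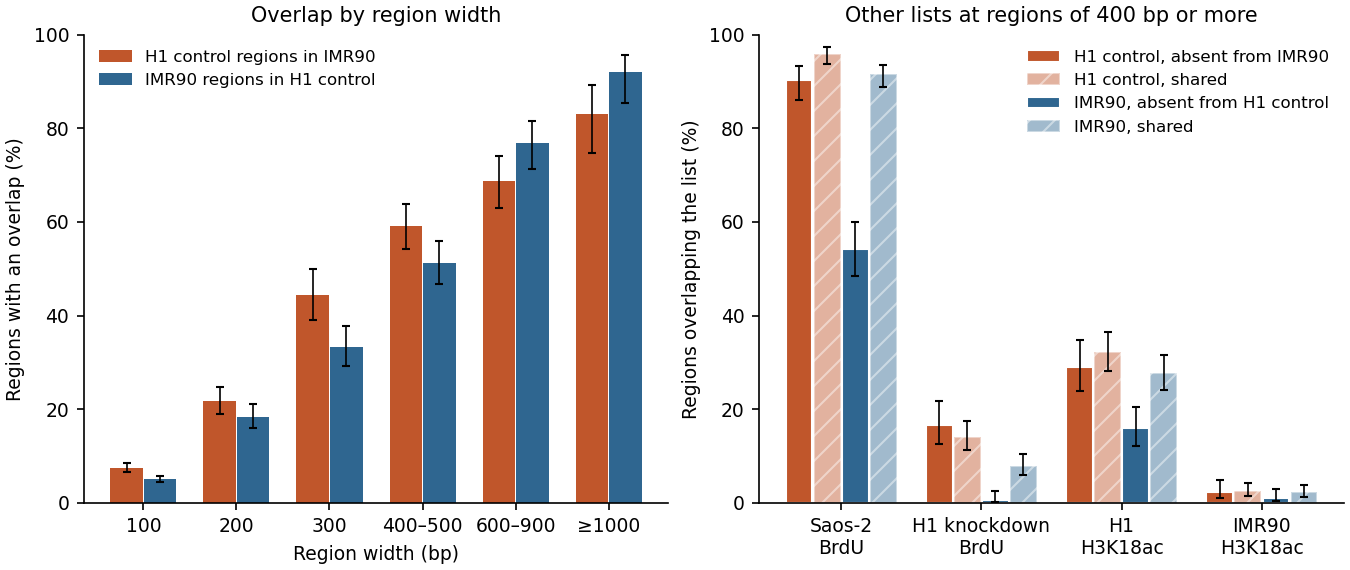
Left, percent of H1 control and IMR90 regions that overlapped a region of the other line, by region width, which reached 83.2% in H1 control and 92.0% in IMR90. Right, percent of regions of at least 400 bp that overlapped each other list of the series, for unshared and shared regions (hatched), with the Saos-2 list holding 90.3% of unshared H1 control regions and 54.3% of unshared IMR90 regions; error bars are Wilson 95% intervals.

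The exact positions of shared regions were then compared in 1038 pairs, each an H1 control region with the IMR90 region that covered most of it. Start and end were identical in 102 pairs (9.83%), of which 47 were single windows and 55 were wider. On the common grid, overlapping single windows are identical by construction, and among the 697 pairs in which both regions exceeded 1 window the share was 7.89%. A further 209 pairs had the same start only and 214 the same end only, and both ends differed in 513 (49.4%). Midpoints coincided in 172 pairs (16.6%), lay within 100 bp of each other in 653 (62.9%) and within 500 bp in 1008 (97.1%). The offset had no clear side, since the H1 control midpoint lay to the left in 456 pairs and to the right in 410, and it ran from -1150 to 1050 bp. As for other pairs of lists, midpoints lay within 100 bp in 65.0% of 1710 pairs of H1 control with Saos-2 and in 61.9% of 1531 pairs of IMR90 with Saos-2.

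**Figure D2:**
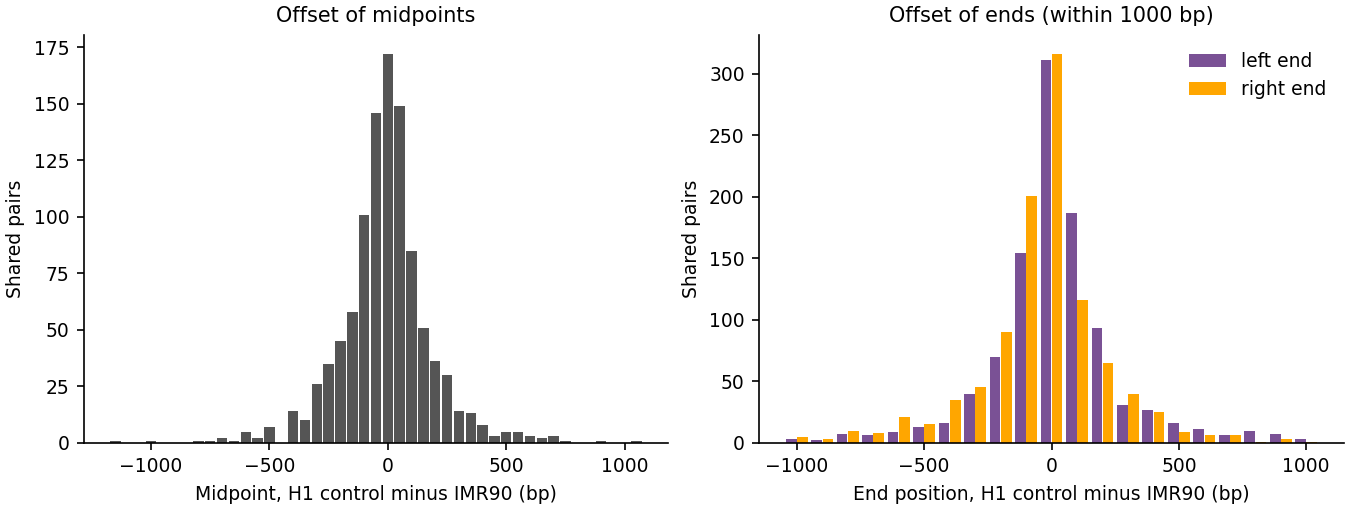
Offsets at the 1038 shared pairs, as H1 control minus IMR90 in bp, for the midpoints (left) and for the left and right ends of the regions, drawn within 1000 bp (right). Midpoints centred on 0, with 62.9% of pairs within 100 bp, where overlap and region width limit the offset by construction.

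The identical pairs included wide regions of high rank. At chr2:235422901-235423800 (hg19) the same 900 bp stood at rank 41 of the H1 control list and rank 31 of the IMR90 list. At chr7:131271601-131272600 the same 1000 bp stood at ranks 44 in H1 control and 30 in IMR90. The widest of the named identical pairs was chr17:75480301-75481600, 1300 bp, at ranks 48 in H1 control and 33 in IMR90. Ranks were also high for both lines at chr5:149034401-149035200 and chr14:69365601-69366300. All 5 overlapped a Saos-2 region, and all but the chr17 pair overlapped an H3K18ac region of H1. Among all shared regions of at least 400 bp, Saos-2 held 96.0% in H1 control and 91.5% in IMR90, and the count is near these shares. H3K18ac regions of H1 overlapped 32.2% in H1 control and 27.6% in IMR90. Only 5 pairs of high rank are set here against a class of all ranks, which allows no conclusion particular to identical pairs.

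Widths at the same place often differed between the lines. The H1 control region was the wider in 349 pairs (33.6%), the IMR90 region in 522 (50.3%), and 167 (16.1%) had equal widths. Median widths were 300 bp in H1 control and 400 bp in IMR90. An excess of at least 500 bp was seen in 89 pairs for H1 control and in 166 pairs for IMR90. In 449 pairs (43.3%) the H1 control region lay wholly inside a larger IMR90 region, and in 289 (27.8%) the IMR90 region lay inside a larger H1 control region. Across pairs, the widths had a Spearman correlation of 0.25, given as a description, since all pairs come from the same 2 libraries and share the window grid.

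The largest width differences lay at some of the highest-ranked regions. The first-ranked H1 control region, chr22:50775501-50778900, spanned 3400 bp and met an IMR90 region of 1000 bp, chr22:50776501-50777500, at rank 45. The second, chr12:123994901-123997700, spanned 2800 bp and met an IMR90 region of 400 bp at its right end, chr12:123997101-123997500, at rank 296. At chr6:34039101-34041000 an H1 control region of 1900 bp at rank 9 met a single IMR90 window, chr6:34039301-34039400, at rank 1445. Saos-2 had a region across each of these 3 places, as it did at 96.0% of shared H1 control regions of at least 400 bp. In the other direction, 2 H1 control regions, chr3:133133201-133133700 of 500 bp at rank 756 and chr3:133134901-133135000 of 100 bp at rank 1676, lay inside 1 IMR90 region of 3400 bp, chr3:133132901-133136300, at rank 7. On chromosome 9, the single H1 control window chr9:91675101-91675200 at rank 1447 lay inside the second-ranked IMR90 region, chr9:91673201-91675300, of 2100 bp. Some regions had several partners: 36 H1 control regions met at least 2 IMR90 regions and 41 IMR90 regions met at least 2 H1 control regions.

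Score per window, the authors' score divided by the number of windows and ranked within its own list, was correlated between the lines at shared places. This division treats the score as a sum over windows, which the sources do not state. The Spearman correlation was 0.87 over the 1038 pairs, and 819 pairs (78.9%) lay within 10 percentile points. Median percentiles were 81.6 in H1 control and 87.3 in IMR90, and 78.5 in H1 control and 86.1 in IMR90 at equal width. The median was thus higher in IMR90, an offset that a rank correlation does not show. Both medians lie high in their lists, which narrows the room for differences. For the total score the correlation was 0.43. Within each list the total score grew with width (Spearman 0.80 in H1 control and 0.81 in IMR90). The part of width in the lower correlation was not tested. In the 255 pairs whose widths differed by at least 500 bp, the score per window correlated at 0.82. In the 167 pairs of equal width it correlated at 0.89. With both regions at 1 fixed width, the total scores correlated at 0.95 over 47 single windows, 0.79 over 33 pairs of 200 bp, 0.84 over 19 pairs of 300 bp and 0.82 over 18 pairs of 400 bp. At the chr6 place above, the 1900 bp H1 control region stood at percentile 97.8 of its list for score per window and the single IMR90 window at percentile 97.3. Other named pairs were further apart, such as the H1 control region chr12:125025101-125025300 at percentile 15.3 with an IMR90 region at 53.3, and chr7:149700301-149701400 at 87.8 in H1 control with an IMR90 window at 67.8. In pairs with Saos-2 the score per window correlated less closely, at 0.60 for 1710 H1 control pairs and 0.60 for 1531 IMR90 pairs.

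**Figure D3:**
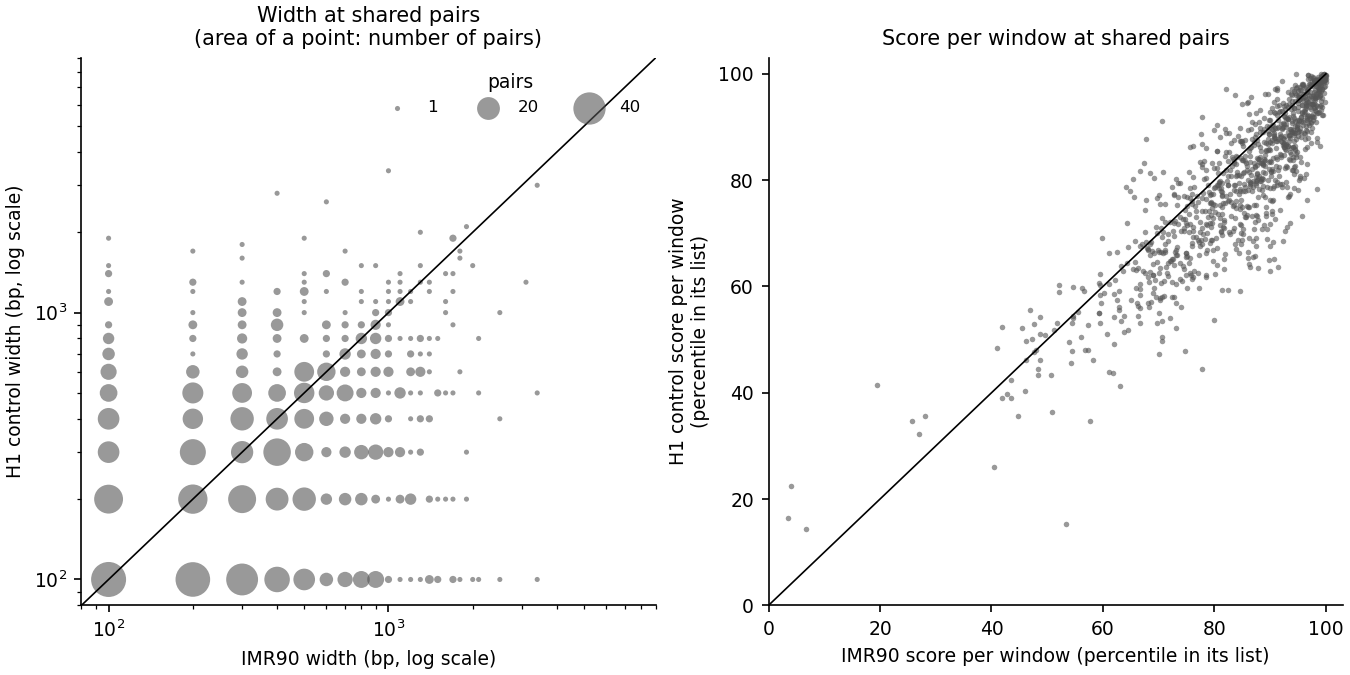
Width (bp, log scales, area of a point giving the number of pairs) and percentile of score per window within the own list, for H1 control on the vertical axis and IMR90 on the horizontal axis, at 1038 shared pairs. Widths scattered widely around the line of equality (Spearman 0.25). Scores per window were more closely correlated (0.87), with a median percentile of 81.6 in H1 control and 87.3 in IMR90.

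Shared regions were of high rank in both lists. Their median score percentile was 84.2 in H1 control and 89.7 in IMR90, against 40.8 for unshared H1 control regions and 41.4 for unshared IMR90 regions. In 997 of the 1038 pairs (96.1%) both regions stood in the upper 50% of their lists, and in 257 (24.8%) both stood in the top 10%. No pair joined the top 10% of H1 control with the lower 50% of IMR90, and 4 pairs joined the top 10% of IMR90 with the lower 50% of H1 control. The pairs of most unequal rank all paired a region of several windows with a narrow one. At chr11:356501-358000, an H1 control region of 1500 bp at rank 72 met a single IMR90 window at rank 2668. At chr7:149700301-149701400, one of 1100 bp at rank 99 met a single IMR90 window at rank 2548. Conversely, the single H1 control window chr20:61084601-61084700 at rank 3451 lay in the IMR90 region chr20:61084101-61085800 of 1700 bp at rank 179. Of the 5 pairs with the higher percentile in H1 control, all 5 H1 control regions overlapped a Saos-2 region, and of the 5 with the higher percentile in IMR90, the IMR90 region did in 3, of which 2 share the IMR90 region chr16:12474301-12475800. Over all shared regions of at least 400 bp, the Saos-2 list held 96.0% in H1 control and 91.5% in IMR90. The H1 control count is near its share, and so few pairs allow no conclusion particular to them.

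On the scale of 100 kb tiles, assigned by region midpoint, the full lists, which differ in length, had similar numbers of exclusive tiles. Of 21102 tiles that held a region of any of the 6 lists, 2105 (9.98%) held H1 control regions and no IMR90 region, 2066 (9.79%) held IMR90 regions and no H1 control region, and 1585 (7.51%) held both. The exclusive tiles contained 2505 H1 control regions (50.6%) and 2761 IMR90 regions (48.4%). Most held 1 region, namely 1789 in H1 control and 1592 in IMR90. Tiles with at least 3 regions numbered 64 for H1 control and 144 for IMR90, and the fullest tile held 5 regions in H1 control and 8 in IMR90. Of the tiles with both, 849 (53.6%) held an overlapping pair. Crowded exclusive tiles were thus more numerous in IMR90. When only tiles with at least 2 regions were counted, 316 were exclusive to H1 control and 474 to IMR90, which turns the order of the full counts. With lists of equal number, keeping the highest scores, 2181 tiles were exclusive to H1 control and 1646 to IMR90. The similar full counts thus depended on the longer IMR90 list.

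Regions in the fullest exclusive tiles were mostly narrow and of widely varied rank. On chromosome 4, a tile with 5 H1 control regions and none of IMR90 (chr4:3500001-3600000) bordered a tile with 6 IMR90 regions and none of H1 control (chr4:3600001-3700000). Saos-2 had 7 regions in the first and 12 in the second. The H1 control tile chr8:139800001-139900000 held 5 regions, among them one of 1600 bp at percentile 99.6, with 1 H3K18ac region of H1 and 6 Saos-2 regions. The H1 control tile chr10:47000001-47100000 held 5 regions with 15 H3K18ac regions of H1 and 13 of IMR90. The IMR90 tile with 8 regions, chr8:145800001-145900000, had 13 H3K18ac regions of H1 and none of IMR90. The IMR90 tile chr16:89300001-89400000 held 6 regions with 16 H3K18ac regions of IMR90 and 19 of H1.

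The highest-ranked regions with no region of the other line within 100 kb were all present in Saos-2, 5 of 5 for H1 control and 5 of 5 for IMR90. They spanned 500 bp or more. Among unshared regions of at least 400 bp, of any rank, the Saos-2 list held 90.3% in H1 control and 54.3% in IMR90. The H1 control count is near that share. The IMR90 count lies above it, but sets only 5 regions of high rank against a class of all ranks. The counts thus allow no conclusion particular to these regions. For H1 control they began with chr19:35788101-35790000, 1900 bp at rank 6, which the knockdown list also held, and chr15:28349801-28351300, 1500 bp at rank 17, whose nearest IMR90 region lay 1004 kb away. For IMR90 they began with chr4:96112701-96113700, 1000 bp at rank 89, whose nearest H1 control region lay 1545 kb away, and chr2:171684601-171685300, 700 bp at rank 139. H1 control thus had regions without a neighbour in the other line nearer the top of its list than IMR90 had.

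Both lines also had long stretches that held their own BrdU regions and none of the other line. The longest such run in H1 control, chosen after its values were seen, held 19 regions over 2.37 Mb at chr12:129509201-131880200, where Saos-2 had 28 regions. An H1 control run of 12 regions spread over 11.5 Mb at chr4:126239301-137759100 consisted of low-ranked regions, with a median percentile of 5.47, and Saos-2 had 1 region there. The longest IMR90 runs were more compact, with 18 regions over 1.34 Mb at chr8:144585701-145924900 and 17 regions over 0.479 Mb at chr17:76840501-77319600. Runs of at least 10 regions numbered 13 in H1 control and 22 in IMR90, in lists of 4954 H1 control and 5710 IMR90 regions.

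Saos-2 and H3K18ac regions were counted in the same tiles. A Saos-2 region lay in 18.2% of all 21102 tiles, a knockdown region in 7.22%, an H3K18ac region of H1 in 81.2% and one of IMR90 in 65.1%. Taking tiles exclusive to a line as its tiles, Saos-2 regions lay in 30.6% of H1 control tiles, 28.4% of IMR90 tiles and 77.4% of tiles with both. Knockdown regions lay in 12.6% of H1 control tiles, 8.91% of IMR90 tiles and 20.4% of tiles with both. H3K18ac regions of H1 lay in 84.0% of H1 control tiles, 87.7% of IMR90 tiles and 95.7% of tiles with both. Those of IMR90 lay in 59.9% of H1 control tiles, 69.4% of IMR90 tiles and 65.3% of tiles with both. On average a tile held 4.30 H3K18ac regions of H1 if it was an H1 control tile, 4.99 if an IMR90 tile, 7.56 if it had both and 2.16 if it had neither. Tiles with both hold at least 2 BrdU regions by construction, while most exclusive tiles held 1. Among exclusive tiles with at least 2 regions, H3K18ac regions of H1 lay in 94.3% for H1 control and 96.0% for IMR90. On average these held 6.41 H3K18ac regions of H1 for H1 control and 7.05 for IMR90. Saos-2 regions lay in 50.3% of them for H1 control and 46.6% for IMR90. The part of region number was not tested. Tiles were counted only if they held a region of any list. A tile with neither line therefore holds a region of another list by construction. This raises its values and the shares over all 21102 tiles.

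The ratio of H1 control to IMR90 regions was above 1 in tiles with few H3K18ac regions of H1 and below 1 in tiles with many, without falling at every step. In tiles without any, there were 11.1 H1 control regions and 9.16 IMR90 regions per 100 tiles, a ratio of 1.21. Tiles without the mark were counted only if another list had a region there, which raises both densities in this class. The ratio was 1.10 with 1 H3K18ac region, 0.871 with 2 to 3 and 0.895 with 4 to 7. In tiles with 8 to 15 there were 71.8 H1 control regions and 95.1 IMR90 regions per 100 tiles, a ratio of 0.755, and in tiles with at least 16 there were 98.2 H1 control regions and 140 IMR90 regions, a ratio of 0.701. From 1 H3K18ac region upward, both lines had more BrdU regions in each denser class of tiles. Tiles grouped by H3K18ac of IMR90 gave ratios between 0.651 and 0.969 without such an order. The ratio of Saos-2 to IMR90 regions was 1.86 in tiles without the H1 mark, 1.28 with 1 region of it, and between 0.918 and 1.00 in the denser classes.

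**Figure D4:**
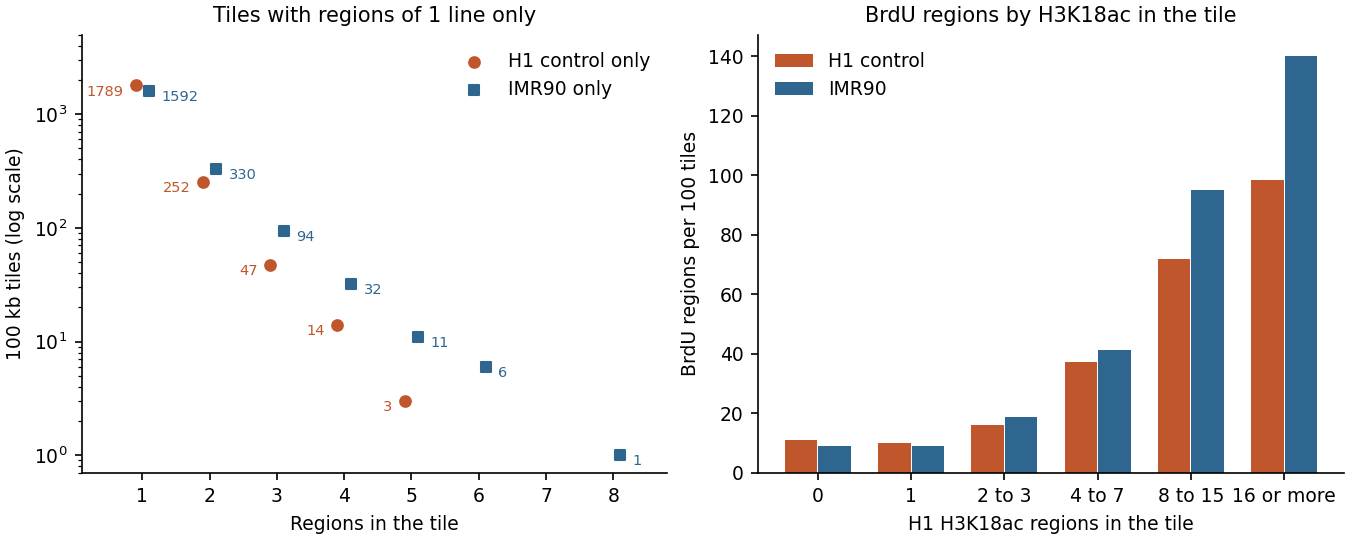
Left, number of 100 kb tiles (log scale) holding 1 to 8 regions of H1 control and none of IMR90, or of IMR90 and none of H1 control. Right, BrdU regions per 100 tiles by the number of H3K18ac regions of H1 in the tile, which reached 98.2 in H1 control and 140 in IMR90 where the tile held at least 16.

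By chromosome, H1 control regions were spread more evenly than IMR90 regions. Over the 500 kb bins that held a region of any list, density ran from 12.7 regions per 10 Mb on chromosome 4 to 45.2 on chromosome 22 in H1 control, and from 10.7 to 64.9 on the same chromosomes in IMR90. That is a span of 3.57-fold in H1 control and 6.06-fold in IMR90. The order of the autosomes was close in the 2 lines, with a Spearman correlation of 0.92 over 22 autosomes, given as a description.

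Set against an overall ratio of H1 control to IMR90 regions of 0.868, the autosomes ran from 1.42 to 0.624. The highest ratios were those of chromosome 6, with 253 H1 control and 178 IMR90 regions (1.42, exact binomial 95% interval 1.17 to 1.73), and chromosome 18, with 123 H1 control and 97 IMR90 regions (1.27, 0.964 to 1.67). The lowest were those of chromosome 17, with 206 H1 control and 330 IMR90 regions (0.624, 0.522 to 0.745), and chromosome 19, with 244 H1 control and 363 IMR90 regions (0.672, 0.569 to 0.793). H1 control had more regions than IMR90 on 6 autosomes, namely 6, 18, 4, 13, 3 and 10. Chromosomes 17, 19 and 22 are known as gene-rich, and 4, 13 and 18 as gene-poor. The interval lay wholly above the overall ratio of 0.868 on 5 autosomes and wholly below it on 6. Exclusive tiles leaned the same way on chromosome 6, with 153 for H1 control and 83 for IMR90, but not on all autosomes. Chromosome 21, with a ratio of 0.846, had 34 exclusive tiles of H1 control and 23 of IMR90. Chromosome 6 also had the lowest share of H1 control regions found in IMR90, 10.7%, and chromosome 16 the highest, 34.1%.

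The ratio fell as the density of H3K18ac regions of H1 increased across autosomes, with a Spearman correlation of -0.83 and a Pearson correlation of -0.62 over 22 autosomes, and -0.81 and -0.74 without the 2 autosomes of most H3K18ac. With the density of H3K18ac regions of IMR90 it also fell, with a Spearman correlation of -0.58 and a Pearson correlation of -0.53. These are descriptions of autosomes that share the same libraries. The spread of the ratio was larger among low-ranked regions. In the lower 50% of each list by score it ran from 0.459 on chromosome 19 to 1.45 on chromosome 6, with a Spearman correlation of -0.85 to H3K18ac, and in the upper 50% from 0.657 on chromosome 14 to 1.38 on chromosome 6, with -0.64. Gene density, base composition and mappability were not analysed here, and their part in the result was not tested.

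**Figure D5:**
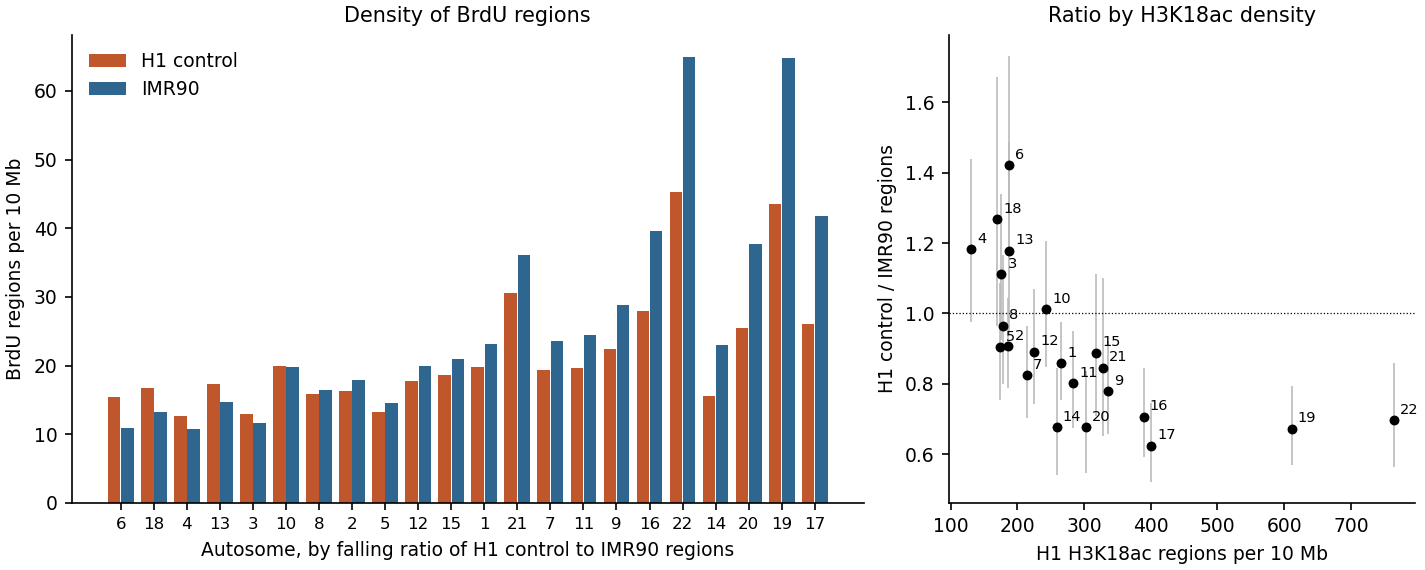
Left, BrdU regions per 10 Mb by autosome for H1 control and IMR90, ordered by the ratio of H1 control to IMR90 regions. Right, that ratio with exact binomial 95% intervals against H3K18ac regions of H1 per 10 Mb, from 1.42 on chromosome 6 to 0.624 on chromosome 17.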

How the data were processed

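Each pulled-down library was deposited as a list of regions on hg19. Alignment software is named as Bowtie 0.12.7, per the submitters' processing notes, which also give the build. Not given in the sources used here are the region caller, its threshold, duplicate handling and any use of the 6 inputs. Column 5 of the deposited lists was taken as the authors' score, a whole number of unstated meaning, and was used, whole or divided by the number of windows of the region, only as a rank within its own list. Dividing it treats it as a sum over windows, which no source states. Library depth is unknown, and a region missing from a list may only have been too weak for the authors' threshold.

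Software was numpy 2.4.6, scipy 1.17.1, matplotlib 3.10.9 and pandas 2.3.3 under Python 3.11.15. Regions are 1-based with both ends included, and only the 22 autosomes were used. Sharing needed at least 1 bp of overlap. Each shared H1 control region was paired with the IMR90 region covering most of it. Tiles of 100 kb took regions by midpoint. Share intervals are Wilson 95% intervals, and intervals of autosome ratios come from the exact binomial interval of the H1 control share. Neighbouring regions are not independent. With 1 library per line, no test was run. The overlap code was checked on simulated lists.

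The members, comparisons and alternatives were chosen with earlier results of these data known. The rule named 5 identical pairs of highest summed percentile, 5 pairs per line of largest width excess, 5 per line of largest percentile difference, 5 highest-ranked regions per line with none of the other within 100 kb, 5 fullest exclusive tiles per line, and the 2 highest and 2 lowest autosome ratios. Alternatives changed the overlap needed, score range, list length, merging, tile size, pairs and chromosomes. Regions carry neither gene names nor sequence, as no hg19 genome or annotation was used.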

Additional observations from a re-analysis of the deposited data

How the results depend on the processing

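Of 68 alternative settings, 43 left their result within its interval, or within 1.5 times for a count, and 25 moved it. Settings of the score correlation, all of them moved, were judged by a fixed difference from the reported value instead. The share of H1 control regions in IMR90 was 17.2% when 50% of the region had to be covered, 27.5% within 1 kb, 39.4% in the upper 50% by score, 22.3% after merging within 10 kb and 6.58% when regions of both lists were reduced to their central windows. The share of IMR90 regions in H1 control was 13.8%, 24.4%, 34.7%, 20.2% and 5.71% under the same settings, and 20.8% with lists of equal number. Identical pairs made up 7.89% of pairs in which both regions exceeded 1 window. Midpoints within 100 bp made up 70.5% of one-to-one pairs, 50.2% after merging and 57.5% where both regions exceeded 1 window. Exclusive tiles numbered 860 for H1 control and 575 for IMR90 at 500 kb, 316 for H1 control and 474 for IMR90 with at least 2 regions, and 805 for H1 control and 899 for IMR90 in the upper 50% by score, and tiles with at least 2 regions of both numbered 332. With lists of equal number, exclusive tiles numbered 2181 for H1 control and 1646 for IMR90, each within 1.5 times of its reported count. Which line had more exclusive tiles therefore depended on the setting. In alternatives added after seeing the data, total scores correlated at 0.99 in pairs of the same width, 0.99 in identical pairs and 0.31 in pairs of different width. The first 2 values pool widths, and at 1 fixed width the correlation was 0.95 for single windows, 0.79 at 200 bp, 0.84 at 300 bp and 0.82 at 400 bp. Beyond what each setting leaves out by construction, the cause was not tested.

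No paired analysis was possible because each line has 1 library. Unknown depth limits all absences, above all those of single windows.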

Other observations

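Score per window correlated at 0.92 over 154 pairs of H1 control with the EP300 and CREBBP knockdown, and at 0.87 over the 1038 pairs of H1 control with IMR90. Pairs of BrdU with H3K18ac regions gave 0.39 for H1 control with H1 (441 pairs), 0.32 for IMR90 with H1 (539 pairs) and -0.14 for IMR90 with IMR90 (140 pairs). These are Spearman correlations over pairs, given as descriptions, and each pair of lists has its own set of places. Within 10 percentile points lay 46.8% of the knockdown pairs and 78.9% of the IMR90 pairs. Their median absolute differences were 10.3 points for the knockdown and 4.91 points for IMR90. The higher correlation of the knockdown pairs thus did not go with closer percentiles.

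Across autosomes, the ratio of Saos-2 to IMR90 regions had a Spearman correlation of -0.20 with H3K18ac density in H1, and that of knockdown to IMR90 regions one of -0.80. For the ratio of H1 control to Saos-2 regions it was -0.55. The ratios to IMR90 regions have their denominator in common with the ratio of H1 control to IMR90 regions, and the ratio to Saos-2 regions its numerator.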
